A study of Mus musculus with 4 samples.

Results

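The chemokine receptor gene Ccr2 and the monocyte-attracting chemokine genes Ccl2, Ccl7, Ccl8 and Ccl12 were followed through immune cells of MC38 tumours. These 5 members were found by symbol among the 22620 genes of the count matrices, and each symbol matched 1 gene. MC38 is a mouse colon adenocarcinoma line. The tumours had grown in wild-type (WT) mice or in knockout (KO) mice. There were 2 WT and 2 KO libraries. All 4 came from tumour tissue digested with collagenases, dispase and DNase, enriched for CD45-positive cells on magnetic beads and captured with a 10x Genomics 3' kit. Strain, sex, age and the number of animals behind a library are missing from the labels, and nothing says that the libraries came from separate animals, so p-values measure only the spread between these libraries. With 2 libraries against 2, a two-sided exact permutation test cannot go below p = 0.333, and the tests below come from models fitted across all genes.

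CCR2 is a G-protein-coupled receptor carried by inflammatory monocytes, which use it to leave the bone marrow and enter inflamed tissue and tumours, where they can become macrophages. CCL2 and CCL7 are its classical ligands, and CCL12 is a mouse ligand of the same receptor. Mouse CCL8 belongs to the same gene cluster but is known mainly as a ligand of another receptor, CCR8. Macrophages, fibroblasts and tumour cells can all make CCL2, and its gene responds to NF-κB and interferon signalling.

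The libraries held 9239 to 18324 barcodes and 94213071 to 130466357 unique molecular identifiers (UMIs, 1 per captured RNA molecule). After filtering, 7989 and 8126 WT cells and 14597 and 8681 KO cells remained, with median UMI counts of 9836 and 11919.5 in WT and 5438 and 7806 in KO, so the KO cells were the shallower ones. Pairs of libraries shared 22 to 51 barcodes. Each cell was placed in a class by marker genes that include none of the 5 members. These names rest on markers alone, so a class named for a cell type holds cells like that type. Mononuclear phagocytes, meaning the macrophage gate, the monocyte gate and a gate on Chil3, Ear2 and Fn1, made up 84.2% and 82.8% of the WT cells and 77.1% and 76.2% of the KO cells. Ptprc, the gene of CD45, stood at 385 to 485 CPM (counts as a share of the class's UMIs, scaled to 1000000) in them, against 5.05 to 20.2 CPM in a gate on fibroblast markers that the beads had not removed.

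The 4 chemokine genes lie within 81.229 kb on the plus strand of mouse chromosome 11 (mm10, GENCODE M21). Ccl2 (ENSMUSG00000035385) spans chr11:82035571-82037453, Ccl7 (ENSMUSG00000035373) chr11:82045712-82047525, Ccl12 (ENSMUSG00000035352) chr11:82101845-82103400 and Ccl8 (ENSMUSG00000009185) chr11:82115185-82116799, and the eosinophil chemokine gene Ccl11 is the other coding gene between them. Ccr2 (ENSMUSG00000049103) lies on the plus strand at chr9:124101950-124113557. The longest runs of identical bases between any pair of the 4 chemokine transcripts were 11 to 23 bases. Ccl2 also overlaps Gm17268 on the opposite strand, and the sources used here do not say whether the counting used strand.

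The promoter table of RefSeq (GRCm38.p6) held 3 of the 5 members, Ccl12, Ccl8 and Ccr2, each as 250 bases before and 50 after the start site. The 100 bases before the start of Ccl12 and Ccl8 are shown because these are the neighbouring members for which the table holds a promoter. Capitals mark TATAAA, the TATA box letters.
Ccl12, chr11:82101745-82101844, plus strand: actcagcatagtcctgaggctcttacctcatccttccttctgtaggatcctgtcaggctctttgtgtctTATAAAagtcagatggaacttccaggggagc
Ccl8, chr11:82115085-82115184, plus strand: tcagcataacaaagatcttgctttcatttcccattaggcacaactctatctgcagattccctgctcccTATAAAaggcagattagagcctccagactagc
TATAAA began 31 bases before the start in Ccl12 and 32 bases before it in Ccl8, was not found in the Ccr2 window, and occurred in 13.6% of 32851 mouse promoters of the same length. The search covered both strands. An NF-κB core (GGG, any 5 bases, CC), a STAT core (TTCNNNGAA), an interferon response core (GAAA, any 2 bases, GAAA) and an AP-1 core (TGANTCA) had no match in any of the 3 windows, and they occurred in 50.8%, 8.30%, 3.44% and 7.81% of all promoters. The windows of Ccl12 and Ccl8 were 55.7% identical.

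Mononuclear phagocytes carried most of the UMIs of every member, but they also held most of all UMIs in every library. They held 94.8% to 97.4% of the Ccl2 UMIs in each library, 97.9% to 98.8% of Ccl7, 98.6% to 99.4% of Ccl12 and 97.5% to 99.0% of Ccl8. For Ccr2 the share was 96.1% and 95.4% in WT but 87.2% and 88.8% in KO, the rest lying mainly in lymphocytes and dendritic cells. In KO library 1 this share of Ccr2 was close to the phagocytes' share of all UMIs. The chemokines were therefore largely a matter of phagocytes in these libraries, whereas the receptor was spread more widely.

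Within the phagocytes, ligands and receptor were arranged in opposite ways. In the macrophage gate, defined by complement C1q genes and other macrophage markers, the medians over the 4 libraries were 1491 CPM for Ccl2, 958 for Ccl7, 540 for Ccl12 and 1345 for Ccl8. In the monocyte gate they were 744, 213, 55.5 and 108 CPM, and in the Chil3 Ear2 Fn1 gate 645, 241, 60.1 and 115 CPM. For Ccl7, Ccl12 and Ccl8 the lowest macrophage library lay above the highest library of both other gates, whereas for Ccl2 the ranges overlapped. Ccr2 ran the other way, with a median of 670 CPM in the monocyte gate, 620 in the Chil3 Ear2 Fn1 gate and 306 in the macrophage gate. These are levels of 1 gene compared between classes, and a 3' count was not divided by gene length. Many cells lay near a gate's edge, 14.6% of the macrophage, 45.6% of the monocyte and 52.8% of the Chil3 Ear2 Fn1 gate, so the 3 gates are neighbouring ranges and not sealed types.

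**Figure D1:**
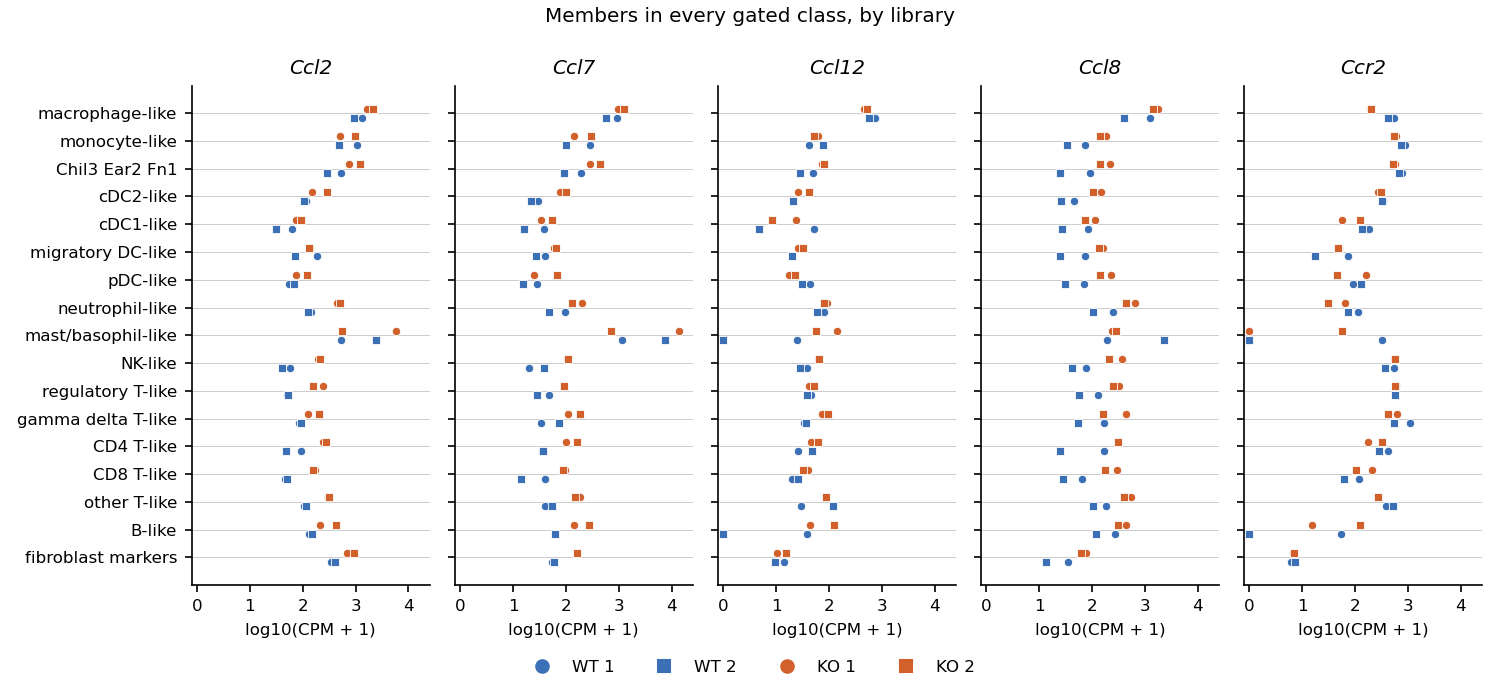
Level of each member in the marker-gated classes, as log10(CPM + 1), with 1 point per library coloured by genotype. Ccl12 and Ccl8 are highest in the macrophage gate among the classes tested, while Ccr2 is highest in monocytes, the Chil3 Ear2 Fn1 gate, γδ T cells, regulatory T cells and NK cells.

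Ccl2, the main CCR2 ligand, was higher in the knockout phagocytes. Its level was 1165 and 868 CPM in the WT libraries and 1537 and 2000 CPM in the KO libraries. Both KO libraries lay above both WT libraries, and the mean of KO was 1.74 times that of WT. The log2 change was 0.91 (SE 0.18, adjusted p = 0.0275, edgeR quasi-likelihood test with Benjamini-Hochberg adjustment over 12656 genes). Among all genes tested in these cells 10.5% passed, and 2 of the 5 members did, Ccl2 and Ccr2. Without WT library 2, the one with the lower level, the change was 0.74 with adjusted p = 0.0630.

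Ccl7, which attracts monocytes through CCR2 and also binds other receptors, had the same order of libraries as Ccl2. It stood at 766 and 517 CPM in WT and 898 and 1152 CPM in KO, again without overlap. The log2 change of 0.78 (SE 0.21) missed the threshold in edgeR (adjusted p = 0.0706) and passed in DESeq2 (0.79, adjusted p = 0.000258). In edgeR it passed without WT library 1 (1.06) and without KO library 1 (0.96) and missed without WT library 2 or KO library 2 (adjusted p = 0.107 and 0.134). Each of these fits leaves 1 group with a single library, so the other group alone supplies the spread.

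Ccl12, the other mouse ligand of CCR2 in the cluster, did not pass. It was counted at 584 and 498 CPM in WT and at 419 and 460 CPM in KO, so both KO libraries lay below both WT libraries, by a log2 change of -0.19 (SE 0.11, adjusted p = 0.288 in edgeR). No alternative setting took it past the threshold.

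Ccl8 had the largest mean ratio of the 4 chemokines and the widest spread. Its level was 977 and 362 CPM in WT and 1568 and 1282 CPM in KO. The KO libraries were both higher, but the WT libraries differed between themselves by 2.70 times, and the log2 change of 1.20 (SE 0.56) had an adjusted p of 0.292 in edgeR. Its size depended on the WT library used, at 2.05 without WT library 1 and 0.69 without WT library 2. Both fits passed (adjusted p = 0.00174 and 0.0364), but they leave 1 WT library, so the spread between WT libraries is gone from them by construction and the KO libraries alone supply it.

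Ccr2 was lower in the knockout phagocytes. It stood at 587 and 450 CPM in WT and at 234 and 239 CPM in KO, and the KO libraries were nearly equal and both below the WT libraries. The KO mean was 0.456 of the WT mean, with a log2 change of -1.03 (SE 0.12, adjusted p = 0.00490 in edgeR). This call held under every alternative setting tried, at -0.86 to -1.17 when a library was left out.

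Scaling by total counts in place of edgeR's TMM factors moved the median change of all genes from -0.01 to -0.12, and 628 of the 1670 genes then called were higher in KO, against 774 of 1323. Relative to that shift the members kept their directions, with log2 changes of 0.80 for Ccl2, 0.68 for Ccl7, -0.30 for Ccl12, 1.09 for Ccl8 and -1.13 for Ccr2. Summed T-cell markers in the phagocyte sums were 8.43 and 9.64 CPM in WT and 37.9 and 23.2 CPM in KO, and summed NK markers 0.878 and 2.35 CPM against 11.3 and 7.56 CPM, with Ncr1 at 0 in WT library 1 only. Their part in the member changes was not tested. In the macrophage gate 14.9% of cells held a UMI of a T-cell marker and 4.52% one of an NK marker. Every non-myeloid marker list had a median of 0 per cell there. With sums this low the median could hardly differ from 0, so it does not measure their part.

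**Figure D2:**
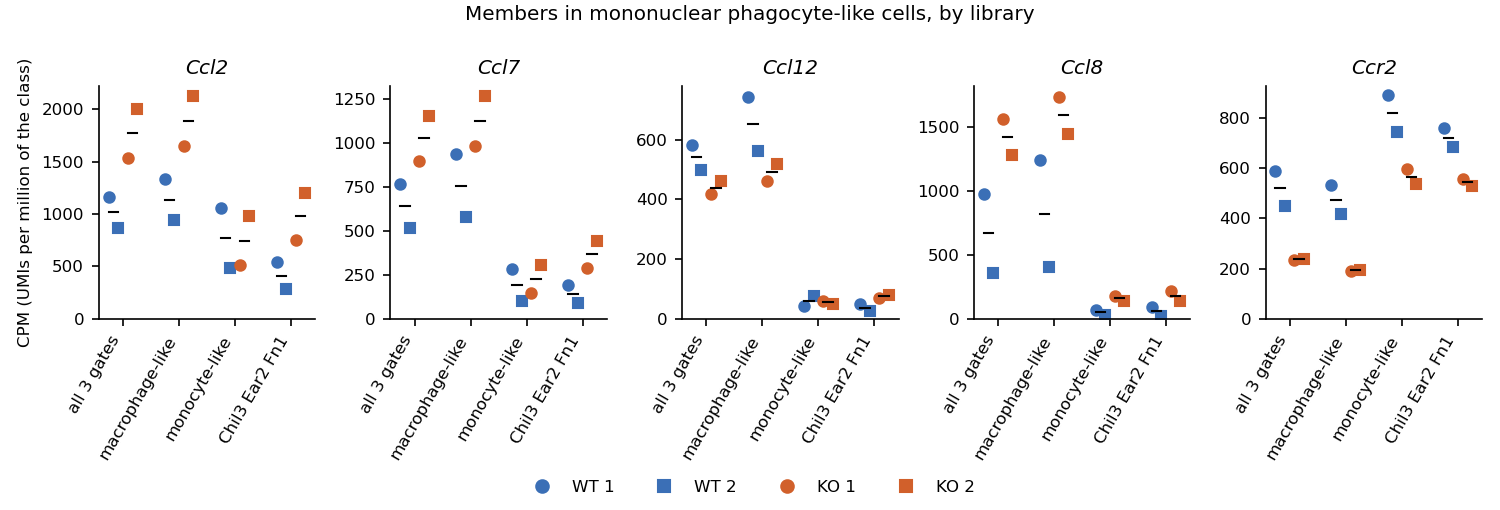
CPM of the 5 members in each of the 4 libraries, for all mononuclear phagocytes and for the macrophage, monocyte and Chil3 Ear2 Fn1 gates, with 1 point per library and a bar at the group mean. Ccl2 is higher and Ccr2 lower in both KO libraries in all phagocytes, and the WT points of Ccl8 stand apart, at 977 and 362 CPM.

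The 3 phagocyte gates did not respond alike. In the macrophage gate Ccl2 rose from 1331 and 944 CPM to 1650 and 2130 CPM (log2 0.86, SE 0.19, adjusted p = 0.0376 in edgeR) and Ccr2 fell from 530 and 415 CPM to 191 and 196 CPM (-1.17, SE 0.12, adjusted p = 0.00211), where 9.75% of all genes passed. Here Ccl2 missed the threshold with scaling by total counts (0.73), with likely doublets kept (0.83) and without WT library 2 (0.67). Ccl7, Ccl12 and Ccl8 had changes of 0.70, -0.29 and 1.08 that did not pass.

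In the monocyte gate Ccl2 was 1056 and 490 CPM in WT and 511 and 977 CPM in KO, which overlapped fully, with a log2 change of -0.06 (SE 0.66). Ccr2 there fell from 891 and 745 CPM to 595 and 535 CPM (-0.53, SE 0.13, adjusted p = 0.0258 in edgeR), and 4.02% of all genes passed. Ccl8, at 73.0 and 33.1 CPM in WT and 181 and 142 CPM in KO, had a change of 1.58 (SE 0.44) and did not pass. Ccr2 was thus the only member called in monocytes.

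In the Chil3 Ear2 Fn1 gate all 4 chemokines had higher values in both KO libraries and none passed. Ccl2 was 538 and 287 CPM in WT and 752 and 1205 CPM in KO (1.30, SE 0.52, adjusted p = 0.299 in edgeR). Ccl12, at 48.9 and 27.0 CPM in WT and 71.4 and 81.3 CPM in KO, had a change of 1.05 (SE 0.31), opposite in sign to that in macrophages. Ccr2 fell from 759 and 684 CPM to 556 and 529 CPM (-0.36, SE 0.09, adjusted p = 0.0207), where 13.9% of all genes passed.

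The differences between gates were tested directly in an edgeR model that kept the library as a block, with 3 pairs of gates and 5 members, and 7 of the 15 passed. The KO effect on Ccr2 was weaker in monocytes than in macrophages by 0.63 (SE 0.11) and weaker in the Chil3 Ear2 Fn1 gate by 0.82 (SE 0.08) on the log2 scale. The effect on Ccl12 was higher in the Chil3 Ear2 Fn1 gate than in macrophages by 1.36 (SE 0.12), and that on Ccl7 by 0.76 (SE 0.13). Against monocytes, the Chil3 Ear2 Fn1 gate had higher effects on Ccl2, by 1.36 (SE 0.10), and Ccl7, by 1.21 (SE 0.18), and monocytes had a higher effect on Ccl8 than macrophages by 0.50 (SE 0.14). Among all genes 5.56% passed for monocytes against macrophages, 4.3% for the Chil3 Ear2 Fn1 gate against macrophages and 4.38% for it against monocytes. For Ccl2, the effect in monocytes minus that in macrophages was -0.89 (SE 0.39) and did not pass (adjusted p = 0.521 in edgeR). The part of free RNA in these differences was not tested.

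Clustering placed most phagocytes in 13 clusters, which held 97.1% of them in both WT libraries and 91.9% and 94.7% in KO, with the rest in clusters of other cells. No test was run on the shares of single clusters. Cluster 2, led by Fcrls, Cbr2 and the fractalkine receptor gene Cx3cr1, held 18.8% and 15.7% of the WT phagocytes and 0.773% and 1.63% of the KO phagocytes. Cluster 3, led by Pf4, Timp2 and Folr2, went from 5.86% and 8.72% to 16.1% and 16.6%. Cluster 4, led by the monocyte genes Plac8 and Ly6c2, went from 5.36% and 4.98% to 17.4% and 15.6%, and cluster 10, led by Ccl5 and Gdf15, from 1.25% and 1.23% to 13.9% and 5.96%.

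The cells that supplied the chemokine UMIs therefore differed by genotype. Cluster 2 held 44.8% and 39.5% of the phagocytes' Ccl2 UMIs in WT but 1.7% and 2.0% in KO, whereas cluster 3 supplied 6.9% and 15.9% of them in WT but 49.0% and 40.2% in KO. Ccl7 and Ccl12 followed the same clusters, with cluster 2 holding 47.5% to 63.8% of their UMIs in WT and cluster 3 46.4% to 55.6% in KO. For Ccl8 the WT UMIs lay mostly in cluster 2 (41.8% and 26.1%) and in cluster 14 (37.9% and 41.8%), a small group led by Cd209f and the hyaluronan receptor gene Lyve1. In KO, cluster 3 (43.6% and 51.5%) and cluster 10 (28.1% and 12.96%) held most of them. The receptor's UMIs lay elsewhere: cluster 5, led by Chil3 and Car4, held 24.4% to 31.9% of them in each library, and cluster 1, led by Ccl17 and Il1r2, 11.1% to 30.3%. Cluster 4 held 5.7% of the Ccr2 UMIs in both WT libraries but 30.5% and 23.4% in KO, and cluster 9, of cycling cells, 16.7% and 18.3% in WT but 3.5% and 5.0% in KO.

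**Figure D3:**
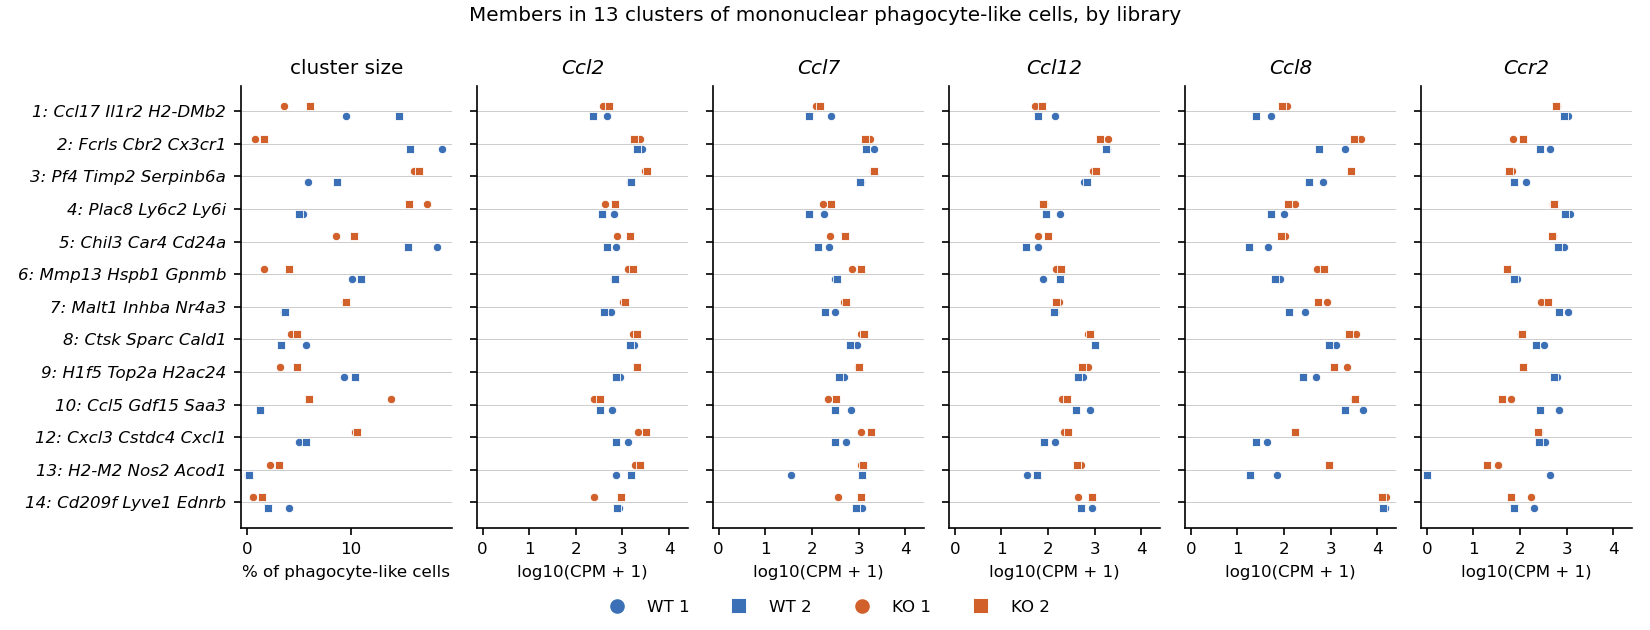
Size of each phagocyte cluster, in percent of the library's phagocytes, and level of each member in it as log10(CPM + 1), with 1 point per library coloured by genotype. Cluster 2 is large in WT and small in KO, cluster 3 the reverse, and both carry Ccl2 at 1432 CPM or more in every library.

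The genotypes were also compared inside clusters, and 12 of the 13 had at least 20 cells in every library and were tested. Cluster 13, led by H2-M2 and Nos2, had 5 and 10 WT cells and was not. Whether the WT and KO cells of a cluster were in the same state was not tested. The share of all genes that passed in edgeR was 9.77% in cluster 1, 0.525% in cluster 2, 3.13% in cluster 3, 4.36% in cluster 4, 5.86% in cluster 5 and 1.88% in cluster 6. It was 3.41% in cluster 7, 2.21% in cluster 8, 13.5% in cluster 9, 3.29% in cluster 10, 5.15% in cluster 12 and 0.609% in cluster 14. Clusters 7 and 8 had median UMI counts of 1270.5 and 1061, far under the others. Cluster 8 was led by Ctsk, Sparc, Cald1, Bgn and Dcn, and Dcn is also a marker of the fibroblast gate. The part of fibroblast RNA or doublets in cluster 8 was not tested.

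Ccr2 had a log2 change below 0 in 12 of 12 clusters and both KO libraries lay below both WT libraries in 10. It passed in 7, namely clusters 1, 4, 5, 6, 7, 8 and 9. In cluster 9, cycling cells led by H1f5 and Top2a, it went from 619 and 520 CPM to 113 and 115 CPM (-2.19, SE 0.11, adjusted p = 2.1e-07 in edgeR). In the Plac8 Ly6c2 cluster it went from 1153 and 913 CPM to 519 and 535 CPM (-0.90, SE 0.13, adjusted p = 0.000687). The change was thus below 0 in clusters with high and with low Ccr2, but it did not pass in all of them. Among clusters low in Ccr2 it passed in cluster 6, from 85.9 and 73.3 CPM to 52.5 and 50.8 CPM. It did not pass in clusters 3 (-0.69) and 14 (-0.36), nor in cluster 12 (-0.30).

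Ccl2 and Ccl7 passed as higher in the same 4 clusters, 3, 6, 7 and 9, and as lower in 0. Their log2 changes were above 0 in 9 and 8 of the 12 clusters and below 0 in 3 and 4, among them cluster 10 (-0.58 and -0.76). In cluster 3 Ccl2 was 1432 and 1488 CPM in WT and 3066 and 3293 CPM in KO (1.15, SE 0.10, adjusted p = 0.000678 in edgeR), and Ccl7 went from 1121 and 1049 CPM to 2011 and 2188 CPM (0.98, SE 0.10). In cluster 2, the main WT source, Ccl2 was 2601 and 2005 CPM in WT and 2348 and 1726 CPM in KO, which overlapped. Ccl12 passed in cluster 3 alone, at 590 and 684 CPM in WT and 938 and 1048 CPM in KO (0.67, SE 0.12, adjusted p = 0.0208), and its changes elsewhere ran from -1.29 to 1.09.

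Ccl8 had a log2 change above 0 in 12 of 12 clusters, both KO libraries lay above both WT libraries in 10, and it passed in 5, clusters 3, 6, 7, 8 and 12. In cluster 3 it went from 701 and 344 CPM to 2783 and 2703 CPM (2.43, SE 0.35, adjusted p = 0.0426 in edgeR). In cluster 6, led by Mmp13 and the glycoprotein gene Gpnmb, it went from 80.1 and 63.9 CPM to 508 and 723 CPM (3.03, SE 0.19, adjusted p = 0.000314). In the Lyve1 cluster, number 14, Ccl8 was at its highest of the 13 clusters in every library. It stood there at 14845 and 13199 CPM in WT and 15703 and 12650 CPM in KO, and the groups overlapped. The log2 change was 0.05 (SE 0.18) in that cluster and 0.06 (SE 0.42) in cluster 10. In cluster 12 Ccl8 was low, at 41.3 and 24.3 CPM in WT and 170 and 175 CPM in KO. The CD8 T cells stood at 26.9 to 64.7 CPM in WT and 176 to 291 CPM in KO. The part of free RNA in the cluster levels was not tested.

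Without the low-UMI clusters 7 and 8, which left 10 clusters, the counts that passed were 3 for Ccl2, 3 for Ccl7, 1 for Ccl12, 3 for Ccl8 and 5 for Ccr2. Giving each of the 12 clusters the same weight, so that their sizes no longer counted, Ccl2 (0.66, SE 0.15, adjusted p = 0.0469) and Ccr2 (-1.05, SE 0.16, adjusted p = 0.0214) passed in limma, where 4.77% of genes did. Ccl7 (0.58), Ccl12 (-0.06) and Ccl8 (0.54) did not. This weighting averaged CPM over the clusters. For Ccl8 the largest part of each library's average, 1465 to 2813 CPM, came from cluster 14, at 12650 CPM or more. Its value of 0.54 is therefore not an average of the log2 changes within clusters. The change of Ccr2 was thus about as large with cluster sizes held equal.

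**Figure D4:**
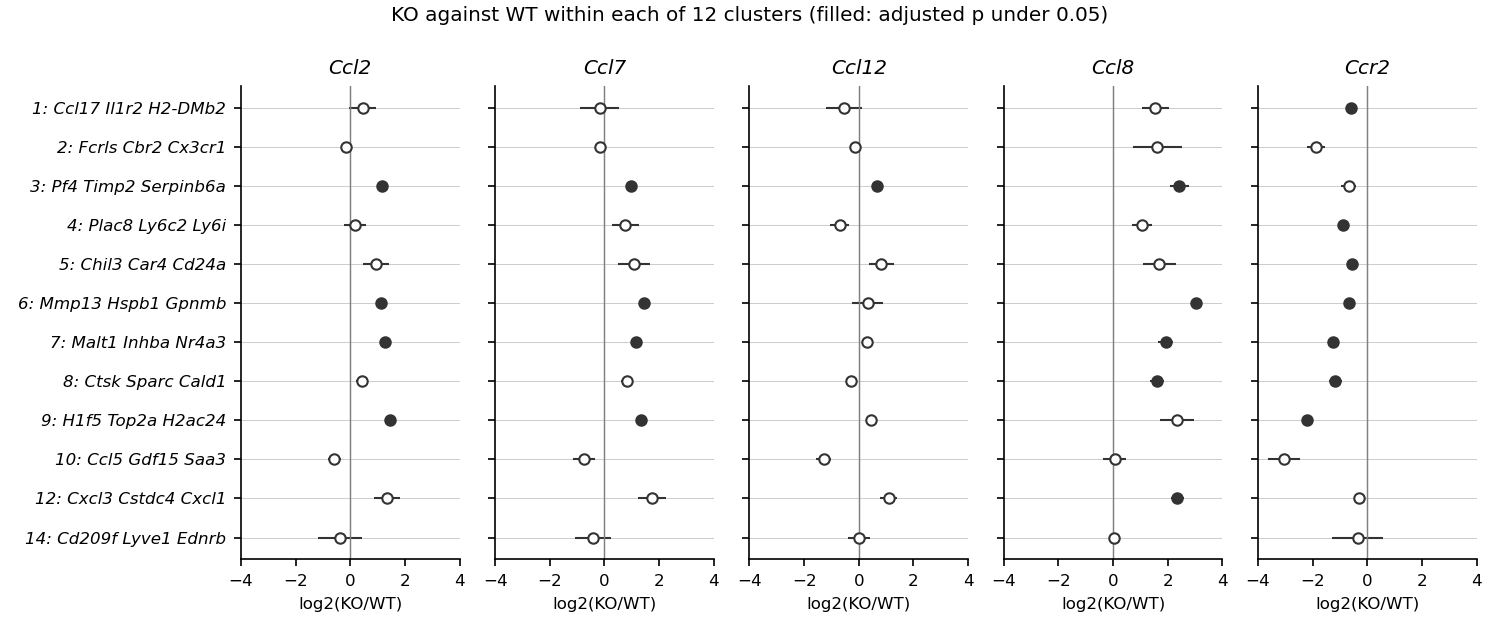
Log2 change of each member, KO against WT, in each of the 12 tested phagocyte clusters, with bars of 1 standard error either way and filled points where the edgeR test passed. Ccr2 lies below 0 and Ccl8 above 0 in all 12 clusters, while Ccl12 lies on both sides. In clusters 10 and 14 Ccl8 is above 0 by only 0.06 and 0.05, less than 1 standard error.

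The number of cells with at least 1 UMI moved with the level. Every cell was thinned to 1500 UMIs, so that depth could not decide detection, which left out 673 of 6729 phagocytes in WT library 1 and 2021 of 11251 in KO library 1. Ccr2 was then found in 46.2% and 38.2% of WT and 25.3% and 26.9% of KO phagocytes, against 67.4%, 62.8%, 41.7% and 48.2% before thinning. Ccl8 was found in 21.02% and 12.9% of WT and 38.7% and 32.8% of KO phagocytes, and in 10.0%, 7.96%, 25.8% and 18.8% of migratory dendritic cells. Migratory dendritic cells are not known as a source of the member chemokines, and shares at or below theirs are read as background. The part of free RNA in these shares was not tested. For Ccr2 the migratory dendritic cells held UMIs in 3.54% to 5.56%, well under the phagocytes.

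Cells with Ccl2 tended to hold the other chemokines too. After thinning, Ccl7 was found in 50% to 57.9% of the phagocytes with Ccl2 and in 9.1% to 16.4% of those without, depending on the library. Ccl12 was found in 42.1% and 39.1% of Ccl2-positive WT phagocytes and in 30.4% and 30.0% of KO ones, against 9.0% to 10.98% of Ccl2-negative ones. Ccr2 had the opposite relation, in 41.3%, 27.6%, 20.9% and 23.7% of phagocytes with Ccl2 and in 49.7%, 43.2%, 28.9% and 30.9% of those without, in WT libraries 1 and 2 and KO libraries 1 and 2. The gap was wider for Ccl8, with Ccr2 in 31.3%, 14.3%, 15.9% and 15.1% of phagocytes with it and in 50.1%, 41.8%, 31.2% and 32.7% of those without. Ligand and receptor RNA were in this sense more often found in different cells in each of the 4 libraries, a description of cells that share a library and carries no test.

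**Figure D5:**
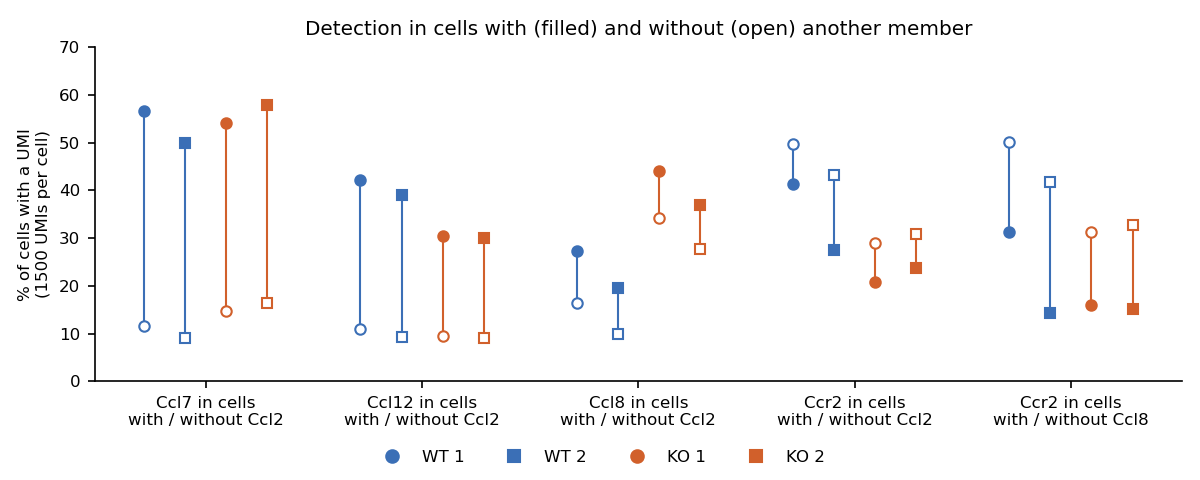
Percent of phagocytes with a UMI of a second member among cells with and without a UMI of the first, after thinning to 1500 UMIs; filled points are cells with the first member, open points cells without it, and each line is 1 library coloured by genotype. Ccl7 is found in 50% to 57.9% of Ccl2-positive cells and 9.1% to 16.4% of Ccl2-negative cells, whereas Ccr2 is less common in Ccl2-positive cells in every library.

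Outside the phagocytes, Ccr2 was most abundant in lymphocytes. Its median over the libraries was 583 CPM in γδ T cells (range 419 to 1086), 568 in regulatory T cells (554 to 586), 540 in NK cells (362 to 555), 326 in other T cells, 304 in CD4 T cells and 111 in CD8 T cells. Monocytes, the Chil3 Ear2 Fn1 gate, γδ T, regulatory T and NK cells overlapped in range, so their order is not resolved. Type 2 conventional dendritic cells (cDC2) stood at 312 CPM, between other T cells and CD4 T cells, and type 1 (cDC1) at 127, above CD8 T cells. Lower still came plasmacytoid dendritic cells at 109, neutrophils at 67.7, migratory dendritic cells at 47.1, B cells at 33.4 and the fibroblast gate at 5.8 CPM.

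In regulatory T cells, which suppress other lymphocytes, Ccr2 stood at 576 and 559 CPM in WT and 586 and 554 CPM in KO, a log2 change of 0.02 (SE 0.14) that did not pass in edgeR. The groups overlapped. Ccr2 passed in none of the 9 tested classes outside the phagocytes, with changes from -0.87 in cDC1 to 1.13 in CD8 T cells (SE 0.51). NK and γδ T cells were among the classes not tested, with 18 NK cells in WT library 1 and 17 γδ T cells in WT library 2. Whether the effect in phagocytes differed from that in lymphocytes was not tested.

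The chemokines passed as higher in several classes that are not known as their main source. Ccl2 passed in CD4 T cells (1.97, with 0.403% of genes passing), CD8 T cells (1.79, 1.53%), regulatory T cells (1.97, 0.519%), other T cells (1.54, 1.35%) and neutrophils (1.84, 1.67%). Ccl8 passed in CD8 T cells (2.76), regulatory T cells (1.68), other T cells (1.87), neutrophils (1.62) and cDC2 (1.87, where 4.03% passed), and Ccl7 in CD8 T cells (2.31), regulatory T cells (1.34), other T cells (1.86) and cDC2 (1.87). In cDC1 no member passed (0.702% of genes), nor in migratory dendritic cells, where edgeR passed 0 of 7103 genes (0%) and 333 had an unadjusted p under 0.05. Ccl12 was too low to be tested in CD4 T cells and cDC1.

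C1qa, a macrophage gene that lymphocytes do not make, moved the same way in these classes. Its log2 change was 1.59 in CD4 T cells, 1.51 in CD8 T cells, 1.44 in other T cells, 1.05 in regulatory T cells and 1.08 in neutrophils, against 0.46 in phagocytes, and in cDC2 it was 0.23. In CD4 T cells, CD8 T cells and other T cells the change of C1qa itself passed in edgeR. The part of free phagocyte RNA, or of phagocyte doublets, in the chemokine values of these classes was not tested.

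In the gate on fibroblast markers Ccl2 and Ccl7 passed as well. Ccl2 stood there at 339 and 405 CPM in WT and 695 and 925 CPM in KO (1.19, SE 0.14, adjusted p = 0.00280 in edgeR) and Ccl7 at 54.6 and 58.1 CPM in WT and 160 and 164 CPM in KO (1.59, SE 0.11, adjusted p = 5.8e-06), where 3.22% of genes passed. Both groups were clear of each other. Ccl2 was 13.9, 9.53, 12.2 and 16.2 times C1qa in these cells, in WT libraries 1 and 2 and KO libraries 1 and 2, and 0.54, 0.30, 0.46 and 0.64 times in phagocytes as a whole. The ratio was also above 1 in every library of the monocyte gate, at 8.53, 3.93, 1.91 and 6.32. C1qa itself stood at 24.4 and 42.5 CPM in WT and 56.9 and 57.3 CPM in KO in the fibroblast gate (log2 0.82, adjusted p = 0.178 in edgeR), and Ptprc at 5.05 and 6.94 CPM in WT and 20.2 and 15.2 CPM in KO. The part of phagocyte RNA in the chemokine values of this gate was not tested. Ccr2 was 5.1 to 6.2 CPM in them. The gate held 231, 272, 69 and 127 cells, which the CD45 beads were meant to leave behind.

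A gate on mast cell and basophil genes held 35 cells in all, 16, 6, 7 and 6 by library, and was not tested. Ccl7 reached 1164 and 7480 CPM there in WT and 13616 and 723 CPM in KO, from 48, 122, 288 and 13 UMIs in 4, 5, 6 and 2 cells. The values came from a handful of cells and overlapped between genotypes.

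Among the other CC chemokine genes, 13 of 15 listed could be tested in phagocytes, and 3 passed as higher and 0 as lower, with a median log2 change of 0.76 against -0.01 for all genes tested, of which 10.5% passed in these cells. Ccl3 and Ccl4, which encode macrophage inflammatory proteins, rose by 0.76 and 1.73, with Ccl4 at 220 and 162 CPM in WT and 618 and 557 CPM in KO. Ccl6 rose by 0.80. Ccl5 stood at 24.6 and 67.8 CPM in WT and 548 and 282 CPM in KO, a change of 3.25 with adjusted p = 0.140 in edgeR. Ccl20 and Ccl28 were too low to test.

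Of 8 genes for receptors and scavengers of overlapping ligands, 5 were tested, and 1 passed, the chemerin-binding receptor gene Ccrl2 (0.69), with a list median of 0.15. A count of 1 is near the 10.5% of all genes that passed, here and in the next list. Ccr1, another chemokine receptor gene of these cells, had a change of 0.18 (SE 0.11) and did not pass. Of 10 listed genes of CCR2 signalling 9 were tested and 1 passed as lower, Nup85 (-0.40), which encodes a nucleoporin that binds CCR2. The G-protein gene Gnai2 (0.08), Arrb2 (-0.10), which encodes a β-arrestin, and Grk2 (-0.01), which encodes a receptor kinase, did not pass, and the list median was -0.03.

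Among 11 regulators of Ccl2 transcription and RNA decay, all tested, 4 passed as higher and 0 as lower, beside 10.5% of all genes, with a list median of 0.39. Nfkbia (0.78) and Tnfaip3 (0.96), targets and brakes of NF-κB, and Irf1 (1.74), an interferon response factor, were among those that rose. Irf1 went from 38.1 and 39.7 CPM to 135 and 107 CPM. The NF-κB subunit genes Nfkb1 (0.23) and Rela (0.14) and the RNA decay genes Zfp36 (0.41) and Zc3h12a (0.19) did not pass.

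Of 10 genes of monocyte entry and survival, 3 passed as higher and 1 as lower, beside 10.5% of all genes, with a list median of 0.20. Itgb2, the shared β2 integrin chain, rose by 0.67 and the growth factor gene Csf1 by 0.62. Cx3cr1 fell by 2.03 on the log2 scale, from 191 and 191 CPM to 41.6 and 45.7 CPM. Csf1r, the receptor of Csf1, had a change of -0.03 and did not pass.

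Likeness was measured as Pearson's r of log2(CPM + 1) over 48 points, 12 classes in 4 libraries, among 11614 genes. The points share libraries and depth, and no p is given. Ccl2 and Ccl7 had r = 0.91 with each other. The genes most like Ccl2 were Lrp1 (0.82), Pdpn (0.82), Lamp1 (0.81), Sgk1 (0.81) and Ctsl (0.81), and those most like Ccl7 included Lgmn (0.83), Ctsb (0.82), Pf4 (0.80) and Apoe (0.79). Ccl12 was most like C1qa (0.87), Pf4, Ctsb, C1qc and Folr2, and Ccl8 most like Ms4a7 (0.84), C1qa, Apoe, Pf4 and C1qc, which are largely macrophage genes. The genes most like Ccr2 included Pycard (0.93), Smpdl3a (0.89), Ubl3 (0.89) and Fermt3 (0.88), while Ccr2 and Ccl2 had r = 0.05.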

How the data were processed

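Per the labels' protocols, cDNA libraries of CD45-enriched cells were made with a 10x Genomics 3' v3.1 kit. The deposited matrices hold UMI counts per gene and barcode, raw and not normalised, made by the authors with Cell Ranger (5.0.1 per the submitters' processing notes, 5.0.0 per the file headers) on mm10. Seurat 3.15 appears in those notes without a role. No deposited barcode had fewer than 500 UMIs, and the sources used here do not say how cells were called.

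Cells needed 200 detected genes and could have up to 20% of UMIs from mitochondrial genes. Scrublet (scanpy 1.11.5, Python 3.11.15) called 0 doublets and was taken not to have worked, so the top-scoring barcodes were dropped at a rate of 0.8% per 1000, or 675, 689, 2610 and 817 by library. Free RNA was not removed. Each cell was gated by its best score among 15 marker sets, with a minimum score of 0.15. Leiden clusters (igraph 0.11.9, 2000 genes, 30 components, resolution 1) left the members out of the clustering genes.

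UMIs were summed per class and library, since cells are not replicates, and fitted over all genes with edgeR 4.0.16 under R 4.3.3 (low counts removed by filterByExpr, TMM scaling, robust quasi-likelihood, Benjamini-Hochberg, threshold 0.05, two-sided) in classes with at least 20 cells in every library. Standard errors are the log2 change over the root of F. CPM is a share of the class's UMIs. DESeq2 1.42.0 was an alternative and limma 3.58.1 was used for equally weighted clusters, on log2(CPM + 1). The depth of a class sum limits what can be called, and intervals cover counting error only. On simulated sums of 12661 phagocyte genes with 200 changed, the edgeR fit recovered 47% of changes of 0.5 and 100% of changes of 1 on the log2 scale, with 7 false calls. The simulation gave all genes the same fixed dispersion, meaning spread between libraries, and changed only genes above a minimum level. Its recovery therefore does not carry over to members with a wider spread, such as Ccl8, whose WT libraries differed by 2.70 times.

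The members and lists were chosen with earlier results of these data known. Named were all 5 members, the listed pathway genes that passed or whose role called for it, and the 5 genes most like each member in level. Leaving out each library, other scalings, filters, gates and doublet settings and a replicate block were tried as alternatives. Some listed genes, and the gene targeted in the knockout, are not reported here.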

Additional observations from a re-analysis of the deposited data

Results flagged for a closer look

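The effect of the knockout differed between phagocyte gates for 7 of the 15 pairs of a member and 2 gates that were tested, in an edgeR model with the library as a block. For Ccl8 the log2 effect in monocytes exceeded that in macrophages by 0.50 (adjusted p = 0.00755), and for Ccr2 it lay higher by 0.63 (adjusted p = 9.4e-07), since Ccr2 fell less in monocytes. Between the Chil3 Ear2 Fn1 gate and macrophages the differences were 0.76 for Ccl7 (adjusted p = 0.0167), 1.36 for Ccl12 (adjusted p = 8.6e-06) and 0.82 for Ccr2 (adjusted p = 2.0e-06). Between the Chil3 Ear2 Fn1 gate and monocytes they were 1.36 for Ccl2 (adjusted p = 2.8e-07) and 1.21 for Ccl7 (adjusted p = 0.00777). In these pairs both gates come from the same 4 libraries, and 45.6% of the monocyte gate and 52.8% of the Chil3 Ear2 Fn1 gate lay near the edge of the gate. The part of cells exchanged between neighbouring gates was not tested, nor was that of free RNA.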

How the results depend on the processing

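None of the members changed direction under any alternative in phagocytes or macrophages, and Ccr2 kept its call and Ccl12 its miss throughout. In phagocytes Ccl2 missed the threshold with the replicate block (0.90, adjusted p = 0.0795) and ranged from 0.70 to 1.10 with a library left out. Ccl7 passed with DESeq2's Wald test (0.79) and ranged from 0.56 to 1.06, and Ccl8 ranged from 0.69 to 2.05. In macrophages Ccl2 missed with total counts (0.73), the replicate block (0.86) and likely doublets kept (0.83), and ranged from 0.65 to 1.09 with a library left out, Ccl7 from 0.43 to 1.05 and Ccl8 from 0.52 to 2.05. The cause was not tested.

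The replicate numbers are not said to pair libraries, and same-numbered libraries did not deviate together (r = -0.02 over genes). The block changed no call of the other members. It moved the count of genes called in phagocytes from 1323 to 671, and that count was 611 without WT library 1, 713 without KO library 1 and 519 with equal weight for each cluster. In macrophages it was 1215, with 688 without WT library 1 and 1957 without KO library 2. The cause of these counts was not tested. Equal cluster weights, a minimum of 2000 UMIs per cell and leaving out the low-UMI clusters were chosen after seeing the data. Clusters named by markers put all 13 in the macrophage class, so that setting gave 1 value for both. Having 2 libraries a group and the shallow T-cell, NK and dendritic sums limit what could be called.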
